A study of Homo sapiens with 4 samples.

Results

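Matrix metalloproteinases (MMPs) and their inhibitors were followed at the RNA level in cells labelled as MHCC-97H, the name of an established human hepatocellular carcinoma (HCC) line with high metastatic capacity. The set was a list of 10 genes chosen by name out of the 58735 genes counted. No measured value was part of that rule, but earlier results of these data were known. It held 6 proteases (MMP1, MMP2, MMP7, MMP9, MMP14 and MMP15), 3 tissue inhibitors of metalloproteinases (TIMP1, TIMP2 and TIMP3) and RECK. Recipient cells were wild type and carried the same batch label throughout. They received PBS, or 2 μg of migrasomes (Migs), for 24 h, and each condition had 1 library, 4 in all. Migs are large vesicles left behind by migrating cells, and they came from MHCC-97H cells in normoxia (normo-Migs), from MHCC-97H cells in hypoxia (hypo-Migs) or from CD147-knockout MHCC-97H cells in hypoxia (CD147KO-Migs). The knockout line had been supplied by another laboratory, and the sources used here do not say whether it was 1 clone.

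MMPs are zinc proteases that cut collagens, laminin and other parts of the extracellular matrix, and most are made as inactive proenzymes. MMP14 and MMP15 sit in the cell membrane, whereas MMP1, MMP2, MMP7 and MMP9 are secreted. TIMPs are secreted proteins that bind the active site of MMPs, and at the cell surface TIMP2 also joins proMMP2 to MMP14 so that proMMP2 is activated. RECK is a membrane-anchored glycoprotein that restrains several MMPs. CD147, encoded by BSG, is also known as extracellular matrix metalloproteinase inducer. In liver cancer these genes are studied in invasion and in vasculogenic mimicry, the formation of vessel-like channels by tumor cells.

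The libraries held 33882496 (PBS), 34559968 (normo-Migs), 40285223 (hypo-Migs) and 35043203 (CD147KO-Migs) reads on genes. The library labelled PBS stood apart from the rest. In it, 251 genes had at most 3 reads although each Mig library had at least 100, and 13 genes showed the opposite. No gene had at most 3 reads in a single Mig library and at least 100 in each of the other libraries. Of the markers of the labelled cell type, AFP, GPC3, ALB, TTR and APOB had 0 reads in every library and APOA1 had at most 2, whereas HNF4A had 134 to 246 reads and KRT8 and KRT18 had between 330 and 647 FPKM. AFP, GPC3, ALB, TTR and APOB were thus absent in all 4 libraries, whereas HNF4A, KRT8 and KRT18 were present. The supplementary methods state that the line passed short tandem repeat profiling. Its identity was not tested from the reads. FPKM divides reads by gene length and library size. Treatment and any other difference between the culture labelled PBS and the Mig cultures cannot be told apart, and fewer cells with a transcript cannot be told apart from less of it per cell.

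For each pair of libraries, the reads of a gene were scaled by TMM factors and expressed as a log2 ratio with an exact 95% interval. A gene was called when the ratio was at least 2-fold in either direction and the interval excluded equal levels. With 1 library per condition there is no replicate check and no p-value is given. Ratios compare libraries and not conditions, and the intervals cover counting error only. PCR copies of a molecule were not marked and may be counted more than once, so the intervals may be too narrow even for that error. Of the 10 genes, 9 reached the 10 reads in at least 1 library that were required, and MMP1 did not.

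Against the library labelled PBS, MMP2, MMP7 and TIMP1 were called higher in each of the 3 Mig libraries. RECK was called higher with hypo-Migs and CD147KO-Migs, MMP14 with normo-Migs alone, and TIMP3 was called lower with normo-Migs and CD147KO-Migs. MMP9, MMP15 and TIMP2 were not called in any of these pairs. This makes 4 of 9 genes higher with normo-Migs and 1 lower, where 16.6% of all 19895 genes tested were called higher and 11.1% lower. With hypo-Migs 4 were higher and 0 lower, where 17.5% and 11.2% of all genes were called. With CD147KO-Migs 4 were higher and 1 was lower, where 16.9% and 11.1% of all genes were called. The median log2 ratio of the 9 genes was 1.02, 0.78 and 0.98 in the same order, and that of all genes tested was 0.03, 0.05 and 0.03. The same PBS library served in all 3 comparisons, so they share its error. If replicates are assumed to vary with a coefficient of variation of 0.4, 2 of the 9 genes (MMP2 and MMP7) stayed called higher in each Mig library and 0 lower, where 6.12%, 6.57% and 6.39% of all genes were called higher and 1.6%, 1.63% and 1.53% lower.

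**Figure D1:**
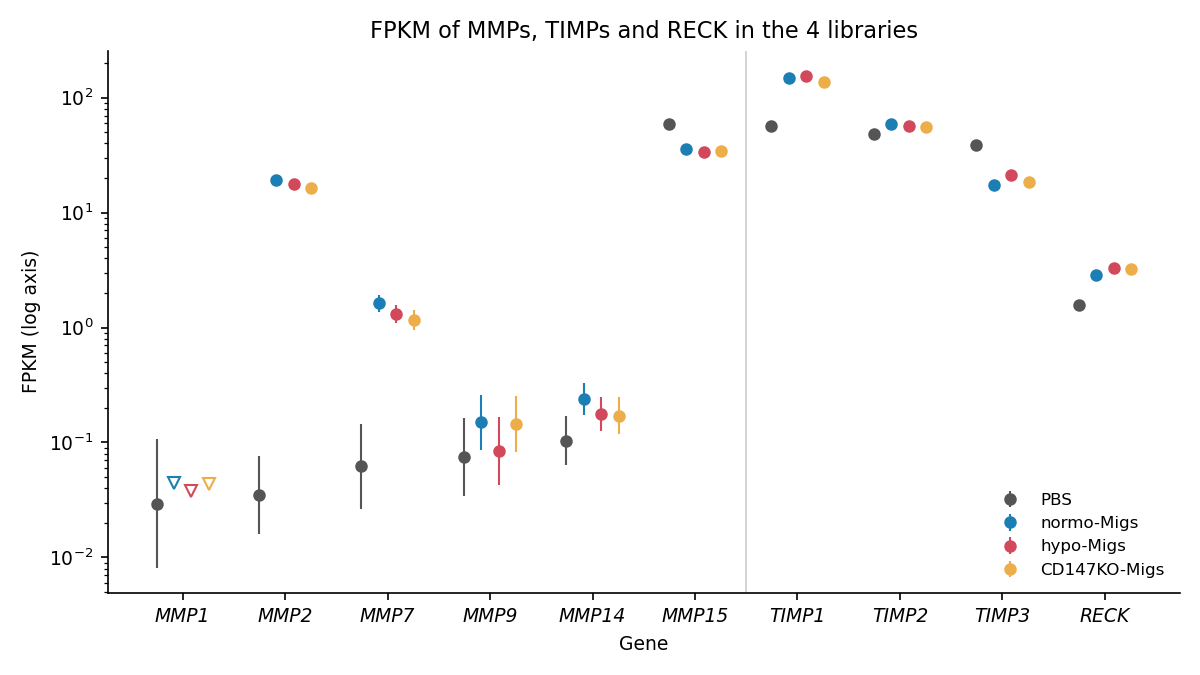
FPKM (log axis) of the 10 genes in the 4 libraries, with PBS in grey, normo-Migs in blue, hypo-Migs in red and CD147KO-Migs in yellow. Bars are 95% Wilson intervals of the reads and cover counting error only, and open triangles mark 0 reads drawn at the limit of 3 reads. MMP2 lies at 0.0352 FPKM with PBS and between 16.3 and 19.3 FPKM with Migs.

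MMP2, or gelatinase A, degrades denatured collagen and the type IV collagen of basement membranes. The gene (GRCh38, chromosome 16, 55389700 to 55506691, plus strand) had 6 reads with PBS and 3272, 3515 and 2836 with normo-Migs, hypo-Migs and CD147KO-Migs. Per length these were 0.0352, 19.3, 17.6 and 16.3 FPKM, and the rank of MMP2 among 19951 protein-coding genes by FPKM went from 13602 with PBS to 2475, 2687 and 2919. The 3 Mig libraries lay close to one another and far above the library labelled PBS. The ratio to PBS was 552-fold (254 to 1506) with normo-Migs, 504-fold (231 to 1374) with hypo-Migs and 466-fold (214 to 1270) with CD147KO-Migs. The width of these intervals comes from the 6 reads with PBS. The antisense RNA MMP2-AS1 and the other 2 genes annotated over MMP2 had 0 reads in every library.

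MMP9, or gelatinase B, shares those substrates and was near the limit of detection. It had 6 reads with PBS and 12, 8 and 12 with normo-Migs, hypo-Migs and CD147KO-Migs, at most 0.149 FPKM. None of its ratios to PBS could be told from equal levels, and the log2 interval ran from −0.51 to 2.72 with normo-Migs, from −1.52 to 2.00 with hypo-Migs and from −0.55 to 2.68 with CD147KO-Migs. SLC12A5-AS1, which overlaps MMP9 on the opposite strand of chromosome 20, had 2, 12, 10 and 12 reads. These were fewer than those of MMP9 with PBS and at least as many in each Mig library. The handling of strands is not given in the sources used here, so reads of the overlapping pair may not have been told apart.

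MMP7, or matrilysin, is a small secreted protease of epithelial and cancer cells. It lies on the minus strand of chromosome 11 (102520508 to 102530753). The gene had 5 reads with PBS and 130, 123 and 95 with normo-Migs, hypo-Migs and CD147KO-Migs, or 0.0622, 1.63, 1.31 and 1.16 FPKM. Again the Mig libraries stood together above PBS, at 26.3-fold, 21.2-fold and 18.7-fold, or log2 ratios of 4.72 (3.46 to 6.37), 4.40 (3.14 to 6.05) and 4.23 (2.95 to 5.88).

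MMP7 is the first gene of a cluster of MMP genes that reaches to MMP13 (chromosome 11, 102520508 to 102955734). MMP1, or interstitial collagenase, lies in it and had 2 reads with PBS and 0 in each Mig library, where 0 reads allow up to 0.0868, 0.0745 and 0.0856 reads per 1000000 (CPM) with normo-Migs, hypo-Migs and CD147KO-Migs. The stromelysins MMP3 and MMP10 had at most 2 and 7 reads, the macrophage elastase MMP12 at most 2, and MMP8, MMP20 and MMP27 had 0 reads in every library. MMP13, or collagenase 3, had 0 reads with PBS and with normo-Migs, and its 16 and 7 reads came from the hypo-Migs and CD147KO-Migs libraries. Within the cluster MMP7 was thus the only protease above 16 reads in any library.

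Promoter sequence is shown for genes that stood on opposite sides of PBS, MMP7 and TIMP1 above it and TIMP3 below it. The letters are from RefSeq (GRCh38.p14), the 250 bases before the start were searched, and the part before the first annotated exon is printed. Of the 10 genes, 6 were searched (MMP7, MMP14, MMP15, TIMP1, TIMP3 and RECK), and MMP1, MMP2, MMP9 and TIMP2 are not shown. Capitals mark matches to TGANTCA (the AP-1 site) or GGGCGG (the GC box) on either strand, or to TATAAA on the gene's strand, and no marked matches overlap one another.
MMP7 (chr11:102530754-102530997, minus strand): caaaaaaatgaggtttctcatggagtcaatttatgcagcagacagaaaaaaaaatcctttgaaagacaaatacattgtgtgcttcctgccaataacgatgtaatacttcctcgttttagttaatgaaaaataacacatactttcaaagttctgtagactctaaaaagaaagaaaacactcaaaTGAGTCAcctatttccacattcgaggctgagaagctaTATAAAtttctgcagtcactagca
TIMP1 (chrX:47582186-47582312, plus strand): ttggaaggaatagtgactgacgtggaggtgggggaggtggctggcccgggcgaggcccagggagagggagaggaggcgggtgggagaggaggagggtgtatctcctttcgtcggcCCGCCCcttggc
TIMP3 (chr22:32801455-32801700, plus strand): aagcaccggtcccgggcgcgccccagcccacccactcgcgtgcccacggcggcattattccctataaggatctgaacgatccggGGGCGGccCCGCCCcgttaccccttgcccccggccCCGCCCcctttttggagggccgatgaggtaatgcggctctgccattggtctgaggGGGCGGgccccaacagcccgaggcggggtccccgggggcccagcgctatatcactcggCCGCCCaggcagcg
In MMP7, TGAGTCA stood 67 to 61 bases before the start and TATAAA 30 to 25 bases before it. Among all 35116 RefSeq promoters of that length, 6.57% held an AP-1 match, 6.8% a TATAAA and 42.6% a GC box. None of the other 5 promoters searched held TGANTCA or TATAAA. Variant forms of the AP-1 site were not searched. TIMP3 and MMP15 held 5 GC boxes each, RECK 3, TIMP1 2 (1 of them in the part not printed), MMP14 1 and MMP7 0. Annotated exons covered all 250 searched bases of RECK, 188 of MMP15, 123 of TIMP1, 28 of MMP14, 6 of MMP7 and 4 of TIMP3. Matches and base content of these stretches are thus partly those of exons. GC content was 33.6% in MMP7, 56.8% in MMP14 and 63.6% to 74.8% in RECK, TIMP1, TIMP3 and MMP15, beside a median of 58.0% (quartiles 46.4% and 68.0%) over all promoters. CpG dinucleotides numbered 3 in MMP7, 7 in MMP14, 12 in TIMP1 and RECK, 26 in TIMP3 and 31 in MMP15, beside a median of 11. A match describes letters and is not evidence of binding.

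The membrane-type proteases differed greatly in level. MMP15 (chromosome 16, 58025566 to 58046901), also called MT2-MMP, had 9008 reads with PBS and 5463, 5983 and 5350 with normo-Migs, hypo-Migs and CD147KO-Migs. These correspond to 58.9, 36.0, 33.4 and 34.2 FPKM, so the library labelled PBS was the highest. The log2 ratio to PBS was −0.70 (−0.75 to −0.65), −0.81 (−0.86 to −0.76) and −0.77 (−0.82 to −0.72), short of 2-fold in all 3. MMP14 (chromosome 14, 22836557 to 22849027), also called MT1-MMP and the main cell-surface activator of proMMP2, had only 16, 37, 32 and 27 reads, or 0.104, 0.241, 0.177 and 0.171 FPKM. Its log2 ratio to PBS was 1.23 (0.35 to 2.17) with normo-Migs, a call that was lost on the log2(FPKM + 1) scale (0.17) and on the log2(FPKM + 0.1) scale (0.74). With hypo-Migs the ratio was 0.78 (−0.13 to 1.75) and with CD147KO-Migs 0.73 (−0.21 to 1.72). Per length, MMP2 exceeded MMP14 80.0-fold, 99.4-fold and 95.1-fold in the Mig libraries and was 0.339 of it (0.109 to 0.913) with PBS.

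TIMP1 (chromosome X, 47582313 to 47586789) inhibits most secreted MMPs and is widely induced by growth factors and cytokines. It had 3019 reads with PBS and 7818, 9565 and 7489 with normo-Migs, hypo-Migs and CD147KO-Migs, or 56.6, 148, 153 and 137 FPKM. The library labelled PBS was the lowest and the Mig libraries lay 2.62-fold (2.52 to 2.74), 2.72-fold (2.61 to 2.84) and 2.44-fold (2.34 to 2.55) above it. TIMP1 went from place 689 among protein-coding genes with PBS to places 193, 166 and 203. TIMP1 lies inside SYN1, on the opposite strand, which had 6, 69, 95 and 51 reads.

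TIMP2 (chromosome 17, 78852977 to 78925387, minus strand) lay closest to its PBS level among the genes above 10 FPKM in any library. It had 9380, 11410, 12950 and 11144 reads, or 48.1, 58.9, 56.8 and 56.0 FPKM with PBS, normo-Migs, hypo-Migs and CD147KO-Migs. The log2 ratio to PBS was 0.30 (0.26 to 0.34), 0.25 (0.21 to 0.29) and 0.23 (0.19 to 0.27). Genes that overlap TIMP2, CEP295NL among them, had at most 15 reads each.

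TIMP3 (chromosome 22, 32801701 to 32863043) stays bound to the matrix and inhibits ADAM proteases besides MMPs. It went the other way from TIMP1, with 6224 reads with PBS and 2768, 3924 and 3029 with normo-Migs, hypo-Migs and CD147KO-Migs. These were 39.1, 17.5, 21.1 and 18.6 FPKM, the highest in the library labelled PBS. The log2 ratio was −1.15 (−1.22 to −1.09) with normo-Migs, −0.88 (−0.94 to −0.82) with hypo-Migs and −1.06 (−1.12 to −1.0) with CD147KO-Migs, so hypo-Migs lay just outside the 2-fold line and CD147KO-Migs just inside it. SYN3, which contains TIMP3 on the opposite strand, had at most 3 reads.

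RECK (chromosome 9, 36036433 to 36124451) was expressed at a lower level and had 329 reads with PBS and 600, 811 and 695 with normo-Migs, hypo-Migs and CD147KO-Migs, or 1.57, 2.89, 3.31 and 3.25 FPKM. The log2 ratio to PBS was 0.89 (0.69 to 1.08), 1.08 (0.90 to 1.27) and 1.06 (0.87 to 1.25). The 3 values sit on both sides of the 2-fold line and their intervals overlap. On the log2(FPKM + 1) scale the ratios with hypo-Migs and CD147KO-Migs were 0.75 and 0.72, below the line.

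**Figure D2:**
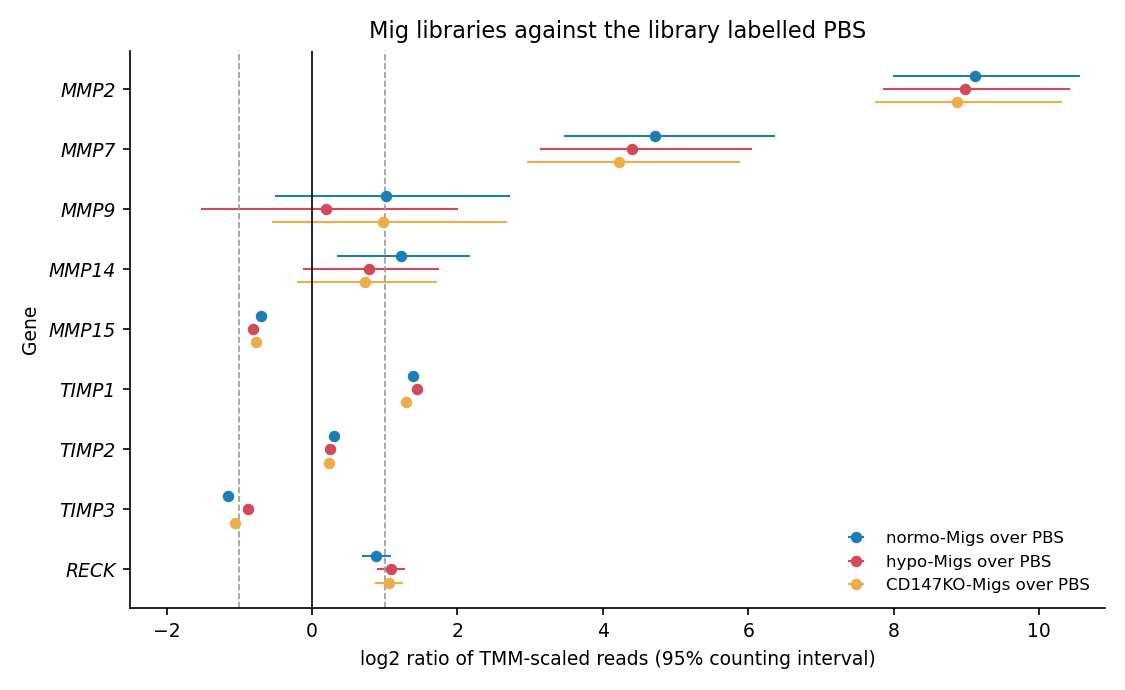
Log2 ratio of TMM-scaled reads of each Mig library over the library labelled PBS for the 9 genes tested. Points are the ratios, bars the exact 95% counting intervals (smaller than the point where not visible), and dashed lines mark 2-fold. MMP2 and MMP7 lie far to the right, TIMP1 near 1.4, and TIMP3 and MMP15 left of 0.

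Markers of other cell types were read beside these differences. The fibroblast and stellate markers summed to 25.8 CPM with PBS and 159 to 169 CPM in the Mig libraries, and 5 of 7 with PBS and 6 of 7 with Migs had at least 10 reads. COL1A1 (681, 3551, 4017 and 3472 reads) and PDGFRB (70, 1747, 2446 and 2166 reads) made up most of that sum. DCN (22, 77, 156 and 138 reads) and LUM (0, 49, 65 and 72 reads) were also higher in value with Migs, COL3A1 (27, 14, 27 and 20 reads) and ACTA2 (71, 68, 95 and 70 reads) were not, and COL1A2 had 2 reads with PBS and 0 with Migs. Endothelial markers summed to 3.48 CPM with PBS and 4.28 to 5.54 CPM with Migs, and 3 and 2 of 5 had at least 10 reads. PECAM1 had 16 reads with PBS and 118, 146 and 131 with Migs, CDH5 had 84, 30, 72 and 59, TEK 11, 0, 3 and 0, and KDR and VWF at most 2 and 7. Leukocyte and macrophage markers summed to 0.649 CPM with PBS and 1.42 to 2.74 CPM with Migs, and 1 of 5 had at least 10 reads in each library. That marker was CD14, with 14, 47, 78 and 86 reads, while CD68 and LYZ had at most 6 and 8 reads, PTPRC at most 2 and CD3E 0. The part of these markers in the differences of the MMPs, TIMPs and RECK was not tested.

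Levels were ordered per length within each library. With PBS the order was MMP15, TIMP1, TIMP2, TIMP3, RECK, MMP14, MMP9, MMP7, MMP2 and MMP1. MMP15 and TIMP1 did not differ there beyond counting error (ratio 1.04, 0.998 to 1.08), nor did any neighbours among MMP14, MMP9, MMP7, MMP2 and MMP1. In each Mig library TIMP1 came first, followed by TIMP2 and then MMP15. MMP2 stood above TIMP3 with normo-Migs (ratio 1.10, 1.05 to 1.16), whereas TIMP3 stood above MMP2 with hypo-Migs (1.20, 1.14 to 1.25) and CD147KO-Migs (1.14, 1.09 to 1.21). RECK, MMP7, MMP14, MMP9 and MMP1 followed in that order in each Mig library, and MMP14 and MMP9 could not be told apart.

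The composition of the proteases and of the TIMPs differed between PBS and Migs more than the protease total did. The FPKM of the 6 MMPs summed to 59.2 with PBS and 57.3, 52.6 and 52.0 with normo-Migs, hypo-Migs and CD147KO-Migs. This sum, and the shares and ratios built on it, leave out the other MMP genes. Among those, MMP28 was at 5.54, 7.67, 7.40 and 9.07 FPKM with PBS, normo-Migs, hypo-Migs and CD147KO-Migs. In the same order, MMP24 was at 6.79, 3.97, 5.04 and 5.97 FPKM and MMP17 at 0.556, 3.85, 3.99 and 4.01 FPKM. MMP15 made up 99.5% of that sum with PBS and 62.8%, 63.6% and 65.9% with Migs. MMP2 made up 0.0594% with PBS and 33.7%, 33.5% and 31.3% with Migs. The 3 TIMPs summed to 144, 224, 231 and 212 FPKM, and TIMP1 took 39.4%, 65.9%, 66.3% and 64.8% of it. TIMP3 took 27.2% of the TIMP sum with PBS and 7.81%, 9.11% and 8.78% with Migs, and TIMP2 took 33.5%, 26.3%, 24.6% and 26.4%.

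The MMP sum over the TIMP sum was 0.412 (0.401 to 0.423) with PBS, 0.256 (0.249 to 0.262) with normo-Migs, 0.228 (0.222 to 0.233) with hypo-Migs and 0.245 (0.239 to 0.252) with CD147KO-Migs. The order rests on 2 genes. Without MMP15 the ratio was 0.00212 with PBS and 0.0951, 0.0829 and 0.0836 with Migs, which turns the direction. Without TIMP1 it was 0.679 with PBS and 0.750, 0.676 and 0.697 with Migs, and PBS no longer stood apart. These are sums of RNA per length and say nothing of proenzyme activation or of protein.

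**Figure D3:**
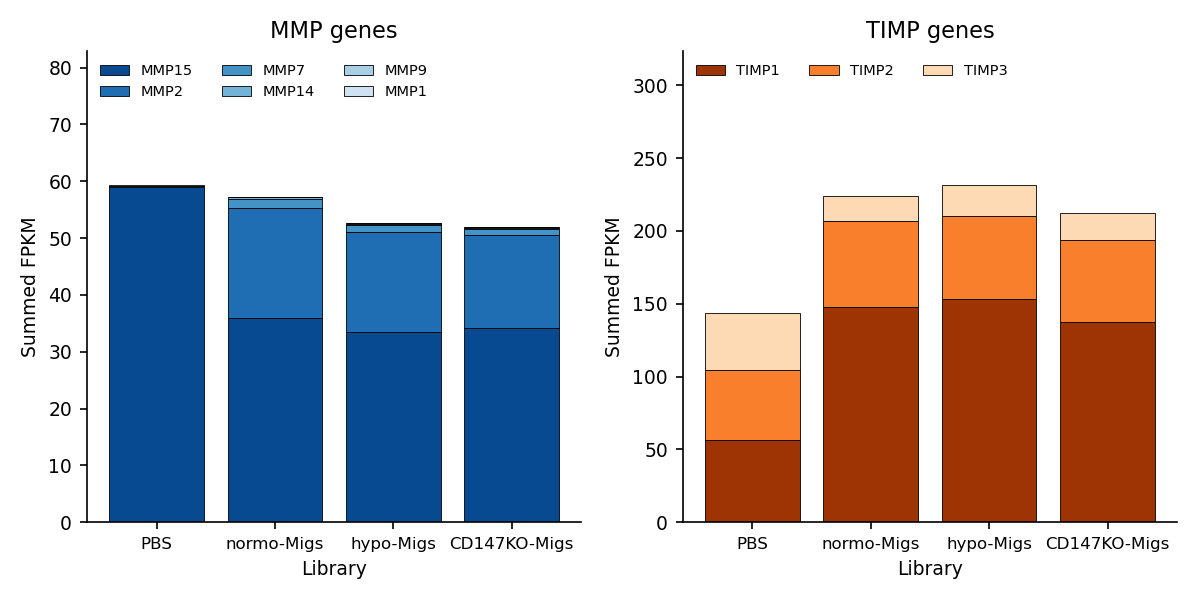
Summed FPKM of the 6 MMP genes (left) and the 3 TIMP genes (right) in each library, stacked by gene, with each axis starting at 0. MMP15 fills 99.5% of the MMP bar with PBS and 62.8% to 65.9% with Migs, and TIMP1 goes from 39.4% to between 64.8% and 66.3% of the TIMP bar.

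Ratios of 2 genes within a library do not depend on the scaling of that library. TIMP1 over TIMP2, per length, was 1.18 with PBS and 2.50, 2.70 and 2.46 with normo-Migs, hypo-Migs and CD147KO-Migs. TIMP3 over TIMP2 was 0.812, 0.297, 0.371 and 0.333, and TIMP1 over TIMP3 was 1.45, 8.44, 7.28 and 7.39. The 2 inhibitors thus moved apart relative to TIMP2, and the intervals of the PBS library did not overlap those of the Mig libraries. MMP2 over TIMP2 was 0.00073 with PBS and 0.327, 0.310 and 0.291 with Migs, and MMP15 over TIMP2 was 1.22, 0.610, 0.589 and 0.612. RECK over TIMP2 was 0.0327 with PBS (0.0292 to 0.0365) and 0.0490, 0.0584 and 0.0581 with Migs.

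The comparisons that ask about hypoxia and about CD147 are those between Mig libraries. None of the 9 genes was called in any of the 3 pairs. Among all genes tested, 3.83% were called higher and 3.18% lower with hypo-Migs against normo-Migs, 3.59% and 3.41% with hypo-Migs against CD147KO-Migs, and 3.19% and 3.8% with normo-Migs against CD147KO-Migs. The 27 log2 ratios lay between −0.82 and 0.49, and in 16 of them the counting interval excluded equal levels. For the 6 genes with over 500 reads in each Mig library, no log2 ratio exceeded 0.27 in size. How much parallel cultures differ is unknown, so differences of this size cannot be set against that spread.

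In value, 3 of the 9 genes lay above and 6 below equal levels when hypo-Migs were set against normo-Migs. TIMP3 had the largest of these ratios in the upward direction, at log2 0.27 (0.20 to 0.34), followed by RECK at 0.20 (0.04 to 0.35) and TIMP1 at 0.05 (0.01 to 0.10). MMP2 was lower, at −0.13 (−0.20 to −0.06), as were MMP15 at −0.11 (−0.16 to −0.05) and TIMP2 at −0.05 (−0.09 to −0.02). MMP7 at −0.32 (−0.68 to 0.05), MMP9 at −0.82 (−2.32 to 0.59) and MMP14 at −0.45 (−1.18 to 0.28) could not be told from equal levels.

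Hypo-Migs and CD147KO-Migs differ by design in the CD147 of the source cells. The knockout line came from another laboratory, so other differences between the source lines cannot be told apart from CD147. With hypo-Migs against CD147KO-Migs, TIMP3 was at log2 0.18 (0.11 to 0.25), TIMP1 at 0.16 (0.11 to 0.20) and MMP2 at 0.11 (0.04 to 0.18). MMP2 was thus 1.08-fold (1.03 to 1.14) higher with hypo-Migs. The intervals of the other genes included equal levels, with MMP7 at 0.18 (−0.22 to 0.58), MMP14 at 0.05 (−0.74 to 0.84), MMP9 at −0.78 (−2.28 to 0.63), MMP15 at −0.04 (−0.09 to 0.02), TIMP2 at 0.02 (−0.02 to 0.06) and RECK at 0.03 (−0.12 to 0.17). At the depth of MMP9 and MMP14, a 1.5-fold difference was not detectable.

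With normo-Migs against CD147KO-Migs, MMP7 was 1.41-fold (1.07 to 1.85) and MMP2 1.19-fold (1.13 to 1.25) higher with normo-Migs. TIMP1, TIMP2 and MMP15 were at log2 0.10 (0.06 to 0.15), 0.07 (0.04 to 0.11) and 0.07 (0.02 to 0.12). RECK was at −0.17 (−0.33 to −0.01) and TIMP3 at −0.09 (−0.16 to −0.02), lower with normo-Migs. MMP2 and MMP7 had their highest ratios with normo-Migs and their lowest with CD147KO-Migs, and TIMP3 had its highest level among Mig libraries with hypo-Migs.

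**Figure D4:**
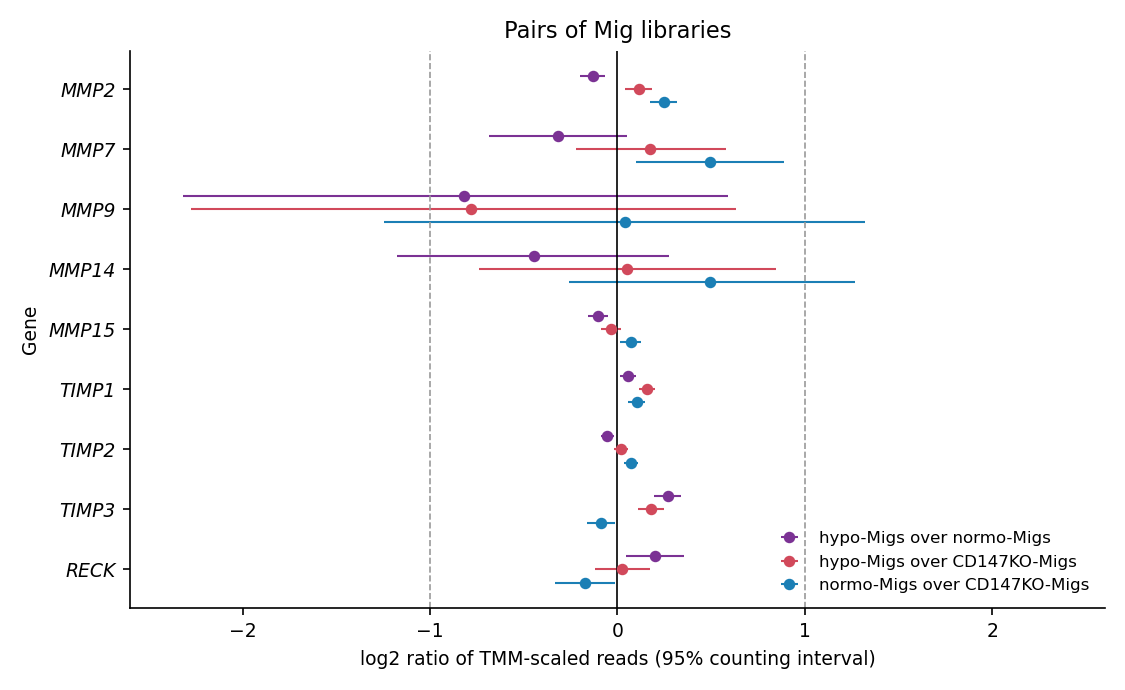
Log2 ratio of TMM-scaled reads between pairs of Mig libraries for the 9 genes tested, with exact 95% counting intervals and dashed lines at 2-fold. All points lie between −0.82 and 0.49, inside the dashed lines, and the widest bars belong to MMP9 and MMP14, which had 8 to 37 reads in the Mig libraries.

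The other MMP genes numbered 17, of which 9 were tested and 3 had 0 reads in every library. Of the 4 other membrane-type MMPs, 3 were called higher than PBS in each Mig library and none lower. Shares over all genes were 16.6% to 17.5% higher and 11.1% to 11.2% lower. MMP25, which is held by a lipid anchor, had 22 reads with PBS and 243, 326 and 259 with Migs. MMP17, anchored in the same way, had 77, 529, 647 and 568 reads, and MMP16 had 0, 26, 34 and 26, at least 8.78-fold, 9.75-fold and 8.54-fold higher against a floor of 3 reads with PBS. MMP24 had 1036, 603, 901 and 932 reads and was not called. The median log2 ratio of this list was 2.97, 3.07 and 2.98 with normo-Migs, hypo-Migs and CD147KO-Migs, beside 0.03, 0.05 and 0.03 over all genes.

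Of the 13 remaining MMPs, 5 were tested. With normo-Migs 1 was called higher than PBS and 1 lower, and with each of hypo-Migs and CD147KO-Migs 3 were called higher and none lower. Among all genes, 16.6% to 17.5% were called higher and 11.1% to 11.2% lower. MMP11, or stromelysin 3, had 4 reads with PBS and 123, 160 and 166 with Migs, and MMP28, or epilysin, the most abundant at 5.54, 7.67, 7.40 and 9.07 FPKM, was not called. This list held calls between Mig libraries, all in genes with at most 34 reads. MMP19 (7, 10, 34 and 27 reads) was called higher with hypo-Migs and CD147KO-Migs than with normo-Migs. MMP13 (0, 0, 16 and 7 reads) was called in the same pairs, and MMP23B (8, 0, 12 and 2 reads) was called higher with hypo-Migs than in the other 2 Mig libraries.

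A list of other inhibitors and related secreted proteins, not all of them inhibitors of metalloproteinases, was divided. The remaining TIMP, TIMP4, had 117, 157, 173 and 145 reads and was not called. Of 9 listed, 8 were tested, and 3, 4 and 3 were called higher than PBS with normo-Migs, hypo-Migs and CD147KO-Migs, with 1 lower in each, PZP. Shares over all genes were 16.6% to 17.5% higher and 11.1% to 11.2% lower. The median log2 ratio of the list was 0.70, 0.73 and 0.07. TFPI2, a Kunitz-type inhibitor of plasmin and other serine proteases, had 6 reads with PBS and 1666, 1765 and 1178 with Migs, 281-fold (129 to 768), 253-fold (116 to 690) and 193-fold (88.6 to 528). PCOLCE, an enhancer of procollagen processing with a TIMP-like domain, had 377, 2838, 3175 and 3333 reads. SPOCK1, a secreted proteoglycan, had 1086, 3540, 3968 and 3155 reads. CST3, or cystatin C, an inhibitor of cathepsins, was at 24.7 FPKM with PBS and 21.8 to 22.3 FPKM with Migs and was not called. A2M, the broad plasma inhibitor, had 12, 23, 30 and 10 reads, and was called higher with normo-Migs and with hypo-Migs than with CD147KO-Migs. PZP had 934 reads with PBS and 211, 295 and 306 with Migs.

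Proprotein convertases cut several proMMPs, MMP14 among them, inside the cell. Of 7 listed, 6 were tested, and 2, 3 and 2 were called higher and 1, 1 and 2 lower with normo-Migs, hypo-Migs and CD147KO-Migs. Among all genes, 16.6% to 17.5% were called higher and 11.1% to 11.2% lower. The median log2 ratio of the list was 0.22, 0.52 and −0.68. FURIN, the best known of them, was at 40.2 FPKM with PBS and 113, 115 and 123 FPKM with Migs, or 2.82-fold, 2.87-fold and 3.08-fold. PCSK1 had 60, 501, 740 and 510 reads and was called higher, and PCSK6 had 2530, 732, 903 and 744 reads and was called lower. PCSK7 (2011, 1436, 1714 and 1390 reads) was not called. PCSK5 had 14, 13, 37 and 0 reads and was called higher with hypo-Migs than with normo-Migs and lower with CD147KO-Migs than with either. PCSK4 had 88, 126, 93 and 51 reads and was called higher with normo-Migs than with CD147KO-Migs.

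ADAM proteases shed membrane proteins, and TIMP3 inhibits several of them. Of 9 tested, 5, 3 and 5 were called higher than PBS with normo-Migs, hypo-Migs and CD147KO-Migs and none lower, and the median log2 ratio was 1.08, 0.52 and 1.30. Shares over all genes were 16.6% to 17.5% higher and 11.1% to 11.2% lower. The 4 most abundant, ADAM15 (46.7 FPKM with PBS and 50.4 to 51.5 with Migs), ADAM9 (28.9 and 32.9 to 34.6), ADAM10 (10.5 and 8.31 to 8.79) and ADAM17 (4.12 and 3.81 to 4.29), were not called. ADAM28 had 0, 10, 5 and 18 reads and was called lower with hypo-Migs than with CD147KO-Migs.

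ADAMTS proteases act on proteoglycans and procollagen. Of 19 listed, 13 were tested, and in each Mig library 7 were called higher than PBS and 3 lower, with a median log2 ratio of 1.60, 1.33 and 1.35. Among all genes, 16.6% to 17.5% were called higher and 11.1% to 11.2% lower. ADAMTS15 had 318, 1413, 1487 and 1355 reads and ADAMTS7 had 129, 702, 731 and 644 reads, both called higher. ADAMTS1 (563, 369, 524 and 530 reads) and ADAMTS10 (294, 265, 361 and 261 reads) were not called. ADAMTS9 had 71, 25, 11 and 17 reads, was called lower than PBS in each Mig library and was called lower with hypo-Migs than with normo-Migs.

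Transcription factors of the AP-1 and ETS families and RUNX2, which act on many MMP promoters, numbered 13, all tested. With normo-Migs 2 were called higher and 3 lower, with hypo-Migs 3 and 3, and with CD147KO-Migs 3 and 2, and the median log2 ratio was 0.43, 0.37 and 0.50. The shares over all genes were 16.6%, 17.5% and 16.9% higher and 11.1%, 11.2% and 11.1% lower. The counts called lower stood above those shares. With only 13 genes each call weighs heavily, so no difference from all genes is read from these counts. JUNB was at 32.6 FPKM with PBS and 64.6, 65.2 and 63.9 with Migs, at log2 ratios of 1.00, 1.01 and 0.98, and was called with hypo-Migs alone although the 3 values hardly differed. FOSL2 was at 58.2, 33.0, 34.8 and 36.8 FPKM, JUND at 41.9, 56.0, 53.8 and 58.9 FPKM and ETS2 at 24.8, 38.6, 41.3 and 40.6 FPKM, and none was called. No gene of this list was called between Mig libraries.

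Proteins that dock MMPs at the cell surface or clear them numbered 11, and 2 were called higher than PBS in each Mig library and none lower, where 16.6%, 17.5% and 16.9% of all genes were called higher, so the count was near that of any genes. BSG, which encodes CD147 itself, was at 367 FPKM with PBS and 261, 241 and 253 FPKM with Migs. CD63, which binds TIMP1, was at 66.0, 106, 101 and 106 FPKM, CD151 at 48.8, 46.8, 45.0 and 44.2 and CAV1 at 23.2, 23.8, 26.6 and 26.0, and none was called. ITGB3, the β3 integrin subunit, had 0, 35, 60 and 72 reads, or 11.8-fold, 17.2-fold and 23.7-fold with PBS set at a floor of 3 reads. The lower limits of the counting intervals were 9.11-fold, 13.6-fold and 18.7-fold. ITGB3 was called lower with normo-Migs than with CD147KO-Migs (log2 −1.0, −1.63 to −0.40). Of 7 genes for the transport of MMP14 to invadopodia, 2 were called higher in each Mig library and none lower. Shares over all genes were 16.6% to 17.5% higher and 11.1% to 11.2% lower, and a list of 7 is too short to set apart from them. SH3PXD2A, the scaffold TKS5, was at 3.63 FPKM with PBS and 10.7, 11.3 and 12.1 with Migs. CTTN, VAMP7 and ADI1 were not called, with ADI1 at 32.9 FPKM with PBS and 22.4 to 24.6 with Migs. The median log2 ratio was 0.69, 0.63 and 0.68 for the docking list and 0.02, −0.01 and 0.03 for the transport list.

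**Figure D5:**
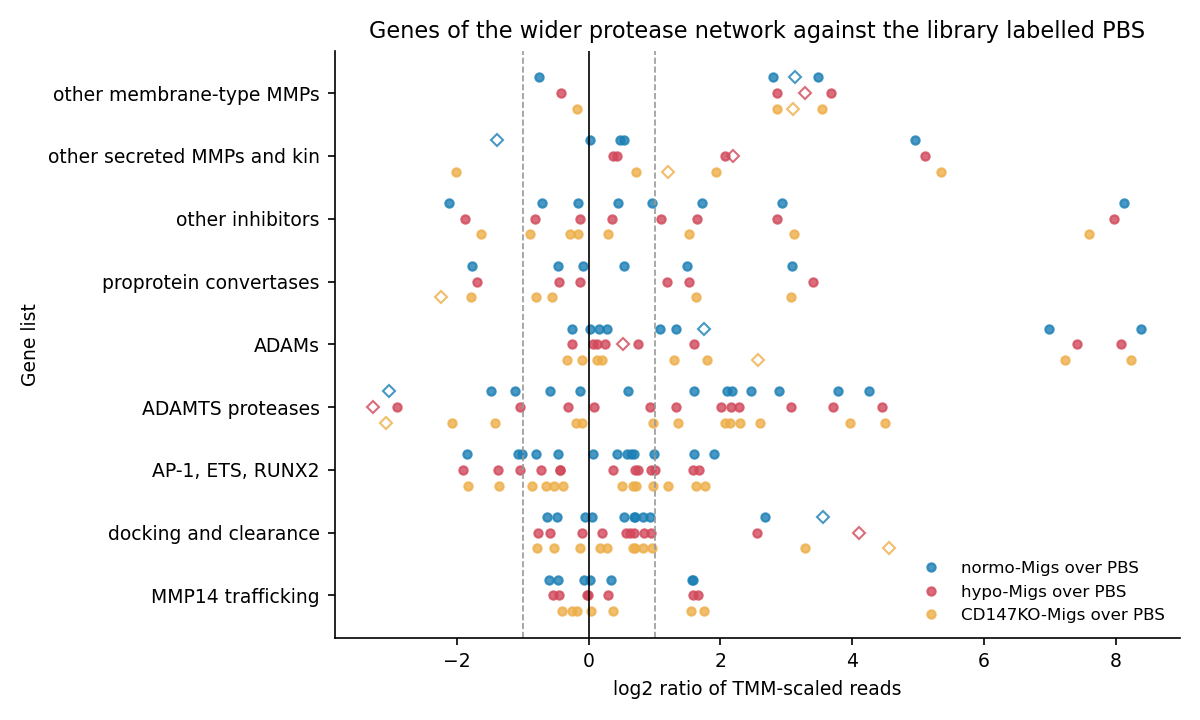
Log2 ratio of TMM-scaled reads over the library labelled PBS for each tested gene of the 9 other lists, with normo-Migs in blue, hypo-Migs in red and CD147KO-Migs in yellow. Dashed lines mark 2-fold and open diamonds are ratios against a library at 0 reads, set at a floor of 3 reads. Of the 76 genes, 27, 30 and 30 were called higher and 9, 8 and 8 lower.

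Over the 9 lists, 76 of 92 genes were tested. Against PBS, 35.5%, 39.5% and 39.5% were called higher and 11.8%, 10.5% and 10.5% lower with normo-Migs, hypo-Migs and CD147KO-Migs, where 16.6%, 17.5% and 16.9% of all genes were called higher and 11.1%, 11.2% and 11.1% lower. The share called lower was thus close to that of all genes. Between Mig libraries 4 were called higher and 1 lower with hypo-Migs against normo-Migs, 3 and 1 with hypo-Migs against CD147KO-Migs, and 3 and 3 with normo-Migs against CD147KO-Migs. As shares these were 5.26% and 1.32%, 3.95% and 1.32%, and 3.95% and 3.95%, where all genes gave 3.83% and 3.18%, 3.59% and 3.41%, and 3.19% and 3.8%, so the counts were near those of any genes. Each of these calls was in a gene with at most 126 reads in any Mig library.

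Profiles over the 4 libraries were compared with those of 11880 other protein-coding genes by the Euclidean distance of centred log2 CPM. With 4 points, 1 of them the library labelled PBS, this describes likeness only. Nearest to MMP2 were ANXA10 (2, 1590, 1819 and 1298 reads), ADAM23 (0, 776, 784 and 716 reads) and RTN4RL1 (0, 872, 855 and 793 reads), at distances of 0.13, 0.13 and 0.18. MMP7 was nearest to AXIN2 (4, 102, 102 and 74 reads), PRR36 and ICAM5 at 0.11 to 0.22. The nearest to TIMP1 were S1PR2, RAB31 and CLTCL1 (0.04 to 0.05), to TIMP3 HKDC1, LTN1 and INSIG2 (0.05 to 0.07) and to RECK SOS2, PYGO1 and MAP2K6 (0.01 to 0.03). MMP15 was nearest to VARS, ZDHHC7 and PTPN1 (0.01 to 0.02) and TIMP2 to KIAA1549, CNOT3 and TMX2 (0.01 to 0.02).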

How the data were processed

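RNA-seq libraries of cells labelled MHCC-97H, 1 for each of 4 conditions, were grouped by GEO's labels. The labels name a SMARTer mRNA kit, whereas the supplementary methods describe poly-T beads and random hexamers. The submitters' processing notes list CASAVA 1.8, fastp, HISAT2 2.0.5, featureCounts 1.5.0-p3 and hg38. How strands were handled is not given in the sources used here. The authors deposited raw counts of reads per gene, without normalization, and FPKM values, scaled for the length of each gene and the size of its library. All 58735 genes matched GENCODE release 29 by identifier and coordinates.

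The 19895 genes that reached 10 reads in any library were tested. Reads were scaled by TMM (factors 0.986 to 1.02) with edgeR 4.0.16 in R 4.3.3, and ratios were given exact 95% intervals with no prior count and a floor of 3 reads for a library at 0. Such a floor was 0.0745 to 0.0885 CPM. Intervals of ratios of FPKM sums were approximated from the reads. Calls needed a log2 ratio of at least 1 in size and an interval that excluded 0. DESeq2 1.42.0 gave alternative size factors, and Python 3.11.15 with pandas 2.3.3, scipy 1.17.1 and matplotlib 3.10.9 the remaining values. The procedure was tested on simulated data. In all, 11 alternatives were tried for the calls.

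The 10 genes, the 9 other lists and the tests were chosen with earlier results of these data known. Besides the 10, the text names up to 4 genes with the highest mean FPKM of each list, genes called between 2 Mig libraries, genes overlapping the 10, and the 3 genes most alike each of the 10 that had at least 100 reads in a library. PZP, TIMP4, MMP3, MMP8, MMP10, MMP12, MMP20 and MMP27 were named after their values were seen.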

Additional observations from a re-analysis of the deposited data

How the results depend on the processing

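With 1 library per condition, leaving out a replicate was not possible. No paired analysis was possible because no condition has a second library. DESeq2 size factors, totals of reads, a prior count of 2, the absence of a filter, an assumed coefficient of variation of 0.1 and the criteria of the paper with an exact binomial test changed no call of the 10 genes, and no setting reversed a direction in which the counting interval excluded equal levels. Among 576 single values, 12 lost a call and 1 gained it, MMP9 with normo-Migs against PBS under the fold alone (1.02). With an assumed coefficient of variation of 0.4, only MMP2 and MMP7 remained called, so 2 genes were higher and 0 lower than PBS in each Mig library. Requiring 10 reads in every library also left 2 called higher in each, since MMP2, MMP7 and MMP9 were then not tested. Shares called over all genes were not computed under that filter. The MMP sum over the TIMP sum without MMP15 was 0.00212 (PBS), 0.0951 (normo-Migs), 0.0829 (hypo-Migs) and 0.0836 (CD147KO-Migs), and without TIMP1 it was 0.679, 0.750, 0.676 and 0.697. FPKM rebuilt from the reads differed from the deposited values only by a constant factor in each library, so the order of the genes could not change.

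For the other 9 lists, genes called higher than PBS with normo-Migs, hypo-Migs and CD147KO-Migs numbered 12, 12 and 12 on the log2(FPKM + 1) scale, 13, 13 and 14 at a coefficient of variation of 0.4, and 19 for each of hypo-Migs and CD147KO-Migs with 10 reads in every library. Genes called lower numbered 3, 4 and 4 on the log2(FPKM + 1) scale, 5 and 5 with normo-Migs and hypo-Migs on the log2(FPKM + 0.1) scale, and 1, 2 and 1 at a coefficient of variation of 0.4. Between Mig libraries, 0 were called in either direction in any pair on the log2(FPKM + 1) scale or at a coefficient of variation of 0.4. On the log2(FPKM + 0.1) scale 2, 0 and 1 were higher and 0 lower for hypo-Migs against normo-Migs, hypo-Migs against CD147KO-Migs and normo-Migs against CD147KO-Migs. At a coefficient of variation of 0.1, 1 and 1 were higher in the first 2 of these pairs and 0 lower in any. With 10 reads in every library, 0 and 1 were higher in the first 2 pairs and 0 lower in the last 2. The fold alone gave 2 lower with hypo-Migs against normo-Migs. The cause was not tested beyond the construction of each setting. The depth limits MMP1, MMP9 and MMP14, with at most 37 reads in any library.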

Other observations

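Several proteases of the ADAM and ADAMTS lists that the naming rule left out had larger ratios to the library labelled PBS than most genes named above, and they are given here as values chosen after they were seen. ADAM19 had 2 reads with PBS and 663, 630 and 611 with normo-Migs, hypo-Migs and CD147KO-Migs, ratios of 336 (92.6 to 2779), 271 (74.7 to 2242) and 301 (83.0 to 2492). ADAM12 had 2, 250, 397 and 304 reads, ratios of 127 (34.7 to 1051), 171 (46.9 to 1414) and 150 (41.1 to 1243). Among aggrecan-cleaving and related proteases, ADAMTS5 had 23, 313, 351 and 367 reads and ADAMTS6 had 12, 226, 306 and 275 reads, and both were called higher in each Mig library. ADAMTS2, which trims procollagen, had 25 reads with PBS and 0 in each Mig library. FOSL1, an AP-1 subunit, had 1500 reads with PBS and 413, 462 and 427 with Migs (log2 −1.84, −1.92 and −1.83), whereas RUNX2 had 89, 330, 310 and 308 reads (1.91, 1.58 and 1.77).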
